A study of Rattus norvegicus with 12 samples.

Results

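CXC chemokines and their receptors were followed in rat left ventricle (LV) 1 day after surgery. The set holds 10 of the 34599 genes of the count table, taken by name. They are the ligands Cxcl1, Cxcl2, Cxcl3, Cxcl6, Pf4 (also called Cxcl4), Cxcl12 and Cxcl16 and the receptors Cxcr2, Cxcr4 and Ackr3. All 10 were among the 15101 genes with enough counts to test. The set was chosen from measured values of these samples, for the steep rise of the neutrophil-attracting ligands in iCarP+/Light+ rats. Values of the members in that group are therefore given as a description, with no test.

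Male Sprague-Dawley rats formed 3 groups of 4. Sham rats had the chest opened without ligation. In MI rats the left anterior descending artery was tied. Rats of the iCarP+/Light+ group had the same ligation and an injection of Chlorella (a green alga that releases oxygen in light) into the infarcted wall. The illuminative cardiac patch iCarP was glued to their epicardium with the adhesive CCS@gel and lit continuously for 3 h. The treated rats thus differed from the MI rats in alga, patch, adhesive and light together, and these cannot be told apart here. None of the 12 samples came from rats with alga and patch but no light. The labels say for every sample that the infarct region was cut out, without saying which part that was in Sham rats, so the part taken cannot be told apart from the ligation between these groups. They give neither the age of these rats nor a sequencing date, so any batch that went with a group cannot be told apart from the group.

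CXC chemokines are small secreted proteins that steer leukocytes along a gradient through G protein-coupled receptors. Ligands that carry the ELR motif (glutamate, leucine, arginine) ahead of the paired cysteines bind Cxcr2 and attract neutrophils. Rat Cxcl1, Cxcl2, Cxcl3 and Cxcl6 are of this kind and are called the ELR ligands here, although processed Ppbp carries the motif too. They are known as early, short-lived transcripts of injured or infected tissue. Cxcl12 instead binds Cxcr4, which holds and attracts progenitor cells and lymphocytes, while the atypical receptor Ackr3 binds Cxcl12 without the usual G protein signal and removes it. Pf4 is a heparin-binding chemokine of platelet granules, and Cxcl16 is made as a membrane-bound ligand of Cxcr6 that also takes up oxidised lipoprotein.

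A cluster of 5 members, in a stretch with 8 listed genes, lay on the minus strand of chromosome 14, from 18731378 to 18862407 in rn6, a span of 131030 bases. Their order was Cxcl2, Cxcl1, Cxcl3, Pf4 and Cxcl6. Cxcl2 and Cxcl1 were 10293 bases apart. The listed Cxcl3 gene spanned 19428 bases for 1466 bases of exon, against a span of 2014 bases for Cxcl2. The neighbouring ELR ligands are close copies of each other, and how reads that match several of them were counted is not given in the sources used here, so the split between Cxcl1, Cxcl2 and Cxcl3 carries that uncertainty. The other members lay apart, Cxcl12 on chromosome 4 (149261044 to 149273891), Cxcl16 on chromosome 10 (57060007 to 57064600), Cxcr4 on chromosome 13 (45314933 to 45318878), and Cxcr2 (81427730 to 81434102) and Ackr3 (97355924 to 97367445) on chromosome 9.

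Because the ELR ligands of this cluster moved together, their promoters are shown. RefSeq's GRCr8 promoter table held 8 of the 10 members, and Cxcl3 and Pf4 had no entry there. The 250 bases before the transcription start are printed 5′ to 3′ on the strand of the gene for the 3 ELR ligands with an entry, at chr14:17479322-17479571 for Cxcl1, chr14:17467256-17467505 for Cxcl2 and chr14:17596418-17596667 for Cxcl6, all on the minus strand. Capitals mark the bases covered by matches to the NF-kappaB consensus on either strand, the matches on the opposite strands overlapping each other.
Cxcl1: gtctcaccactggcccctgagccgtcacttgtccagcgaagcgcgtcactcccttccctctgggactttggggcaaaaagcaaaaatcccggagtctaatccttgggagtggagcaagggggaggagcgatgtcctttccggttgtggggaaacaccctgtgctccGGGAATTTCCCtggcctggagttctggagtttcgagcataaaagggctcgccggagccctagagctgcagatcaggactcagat
Cxcl2: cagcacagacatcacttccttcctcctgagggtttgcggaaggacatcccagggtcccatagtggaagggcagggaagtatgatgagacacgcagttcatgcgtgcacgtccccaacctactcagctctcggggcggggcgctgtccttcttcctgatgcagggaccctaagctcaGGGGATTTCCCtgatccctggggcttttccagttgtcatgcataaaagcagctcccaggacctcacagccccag
Cxcl6: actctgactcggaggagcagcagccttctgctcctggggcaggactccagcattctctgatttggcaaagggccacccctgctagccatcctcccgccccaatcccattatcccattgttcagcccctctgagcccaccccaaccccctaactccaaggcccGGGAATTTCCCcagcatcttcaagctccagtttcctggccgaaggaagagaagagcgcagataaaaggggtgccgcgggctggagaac
The marked run began 84 bases before the start in Cxcl1, 74 in Cxcl2 and 88 in Cxcl6, and its letters were the same in Cxcl1 and Cxcl6. Over the whole 300-base window, from 250 bases before the start to 50 after, 3 of the 8 member promoters matched the NF-kappaB consensus, and 4.18% of all 33469 promoters did. The AP-1 core TGANTCA matched none of the 8, and 7.33% of all promoters. The hypoxia response element core ACGTG matched Cxcl2 alone among the 8, and 19.3% of all promoters. These are matches of letters, not sites shown to be used.

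Gene counts summed to 14064414 to 17136958 per library. Levels are given as CPM, counts scaled to library size and by TMM factors, and a count of 0 allows up to 3 counts, or 0.175 to 0.213 CPM, which covers counting error only. The 8 markers of ventricular cardiomyocytes were detected in every group. Their summed level ran from 40020 to 44490 CPM in Sham, from 2360 to 4574 CPM in MI and from 1744 to 5508 CPM in treated rats. In bulk tissue, fewer cells of a type and less RNA per cell cannot be told apart. The labels say no more of the 4 rats of a group than that they are separate samples, so p-values measure the spread between these samples.

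The comparison of MI with Sham asks how the ligation moved this system at day 1. It is not the comparison that chose the members, although its MI rats are shared with that one. By edgeR's quasi-likelihood test, with p-values adjusted by Benjamini-Hochberg across the 15101 genes, 7 of 10 members rose, beside 30.2% of all genes tested. Nothing is read from that count, since Cxcl2, Cxcl3 and Cxcl6 reached the filter's level of 0.618 CPM (unscaled) in 0 of 4 Sham rats and passed the filter only through the groups where they are high. The filter asks for that level in 4 of the 12 rats, and Cxcl1 and Cxcr2 reached it in 3 of 4 Sham rats. The ELR ligands, their receptor Cxcr2 and Pf4 rose most, with no overlap between the groups. Cxcl12 and Ackr3 fell, 2 of 10 beside 33.6% of all genes. Scaling by total counts in place of TMM moved the shares of all genes to 51.0% higher and 18.4% lower, and turned the direction of no called member. The median log2 fold change of the 10 was 3.07, beside -0.06 over all genes. That median includes Cxcl2, Cxcl3 and Cxcl6, so nothing is read from it either.

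Cxcl1, the ELR ligand already present in uninjured wall, stood at 1.74, 1.30, 1.52 and 0.590 CPM in the 4 Sham rats. It stood at 13.7, 13.7, 18.0 and 12.4 CPM in the MI rats. Every MI rat lay above every Sham rat, and the MI rats were close together. The log2 fold change was 3.48 ± 0.30 (SE, adjusted p = 6.42e-07).

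Cxcl2, a ligand of the same receptor that neutrophils and macrophages also make, was near the detection limit in Sham, at 0.144, 0.0683, 0.380 and 0.368 CPM, or 1 to 5 counts per rat. In MI it stood at 15.4, 11.1, 16.4 and 3.35 CPM. MI 5 was the lowest MI rat but still far above Sham. The ratio of summed counts was 49.3, with a 95% counting interval of 28.7 to 92.9. Such intervals, here and below, cover counting error only and leave out the spread between rats. No p is given for Cxcl2, Cxcl3 and Cxcl6, which the filter kept for their high groups alone.

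Cxcl3, the third closely related ligand, was at 2, 0, 1 and 0 counts in the Sham rats, 3 counts in all. The MI rats held 588, 296, 392 and 62 counts, or 28.2, 16.0, 21.9 and 3.30 CPM, and MI 5 was again the lowest. Against so few Sham counts the ratio of summed counts was 323.6, with a 95% counting interval of 110.5 to 1571. The fitted log2 fold change, which rests on those few counts, was 8.13, and 9.09 without Sham 1, which held 2 of the 3 Sham counts.

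Cxcl6, a further Cxcr2 ligand whose older rat symbol is Cxcl5, was at 0, 0, 1 and 5 counts in the Sham rats. In the MI rats it was at 80, 57, 91 and 37 counts, or 3.83, 3.08, 5.09 and 1.97 CPM. It was thus the scarcest of the ELR ligands after ligation. The ratio of summed counts was 32.0, with a 95% counting interval of 14.5 to 88.1. The fitted log2 fold change was 4.91, and 6.79 without Sham 5, which held 5 of the 6 Sham counts.

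In iCarP+/Light+ rats the same ligands were far higher again. The members' values in this group took part in choosing them, so the counts that follow are read as description. In 7 of 10 members every iCarP+/Light+ rat lay above every MI rat, beside 12.1% of all genes tested, and in 0 of 10 every rat lay below, beside 4.37%. Among all genes tested 11.6% rose and 2.01% fell between these groups by edgeR. The median log2 fold change of the 10 members was 1.99, beside 0.01 over all genes.

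Cxcl2 reached 1806, 1711, 2480 and 3441 CPM in the 4 treated rats. These are 28308 to 48919 counts per rat, where the MI rats held 63 to 322. The mean was 2359 ± 798 CPM (SD, n = 4) against 11.6 ± 5.94 CPM (SD, n = 4) in MI, a log2 difference of 7.67 ± 0.50 (SE).

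Cxcl3 reached 1436, 1424, 1765 and 2502 CPM, against 3.30 to 28.2 CPM in MI, a log2 difference of 6.68 ± 0.56 (SE). Against Sham the ratio of summed counts was 32360, with a 95% counting interval of 11070 to 156900. That ratio rests on 3 Sham counts, 2 of them in Sham 1. Cxcl1 reached 220.3, 224, 286 and 420.5 CPM, against 12.4 to 18.0 CPM in MI, a log2 difference of 4.32 ± 0.26 (SE). The 3 genes had their highest value in the same rat, iCarP+/Light+ 5.

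Cxcl6 stayed the scarcest, at 58.0, 25.7, 27.4 and 36.6 CPM, a log2 difference of 3.40 ± 0.40 (SE) from MI. Its highest value was in iCarP+/Light+ 1, the rat with one of the lower values of the other ligands.

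**Figure D1:**
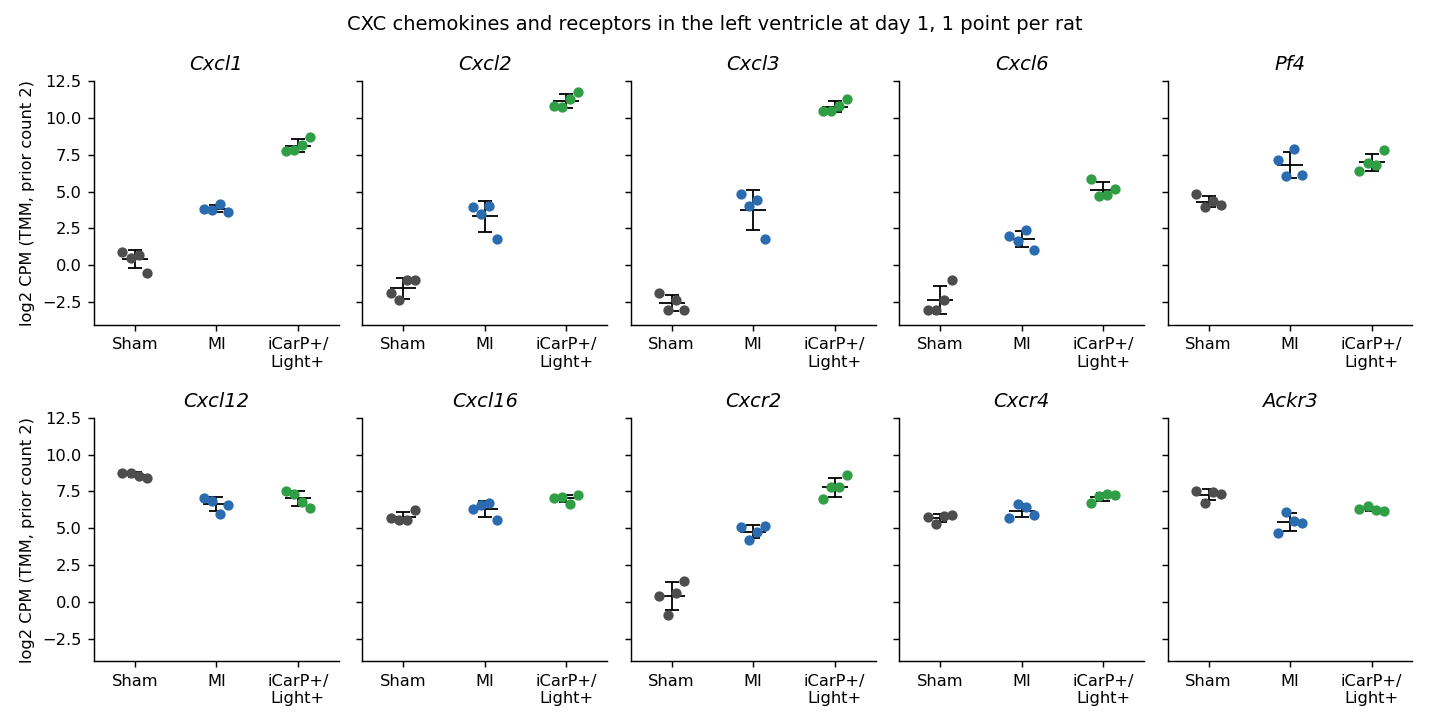
Level of the 10 members in each rat, as log2 CPM after TMM scaling with a prior count of 2, by group on the x axis. Points are rats, and bars are the mean ± SD (n = 4). The 4 ELR ligands and Cxcr2 step up from Sham to MI to iCarP+/Light+ without overlap, while Cxcl12 and Ackr3 are highest in Sham.

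The 4 ELR ligands together took 0.000137% of all counted reads in Sham and 0.00565% ± 0.00220 in MI (SD, n = 4). In iCarP+/Light+ rats they took 0.449% ± 0.126 (SD, n = 4), with a range of 0.334% to 0.614%. Their makeup differed as well as their amount. Per length of transcript, Cxcl1 made up 78.9% ± 18.8 of ELR ligand reads in Sham, 43.0% ± 16.6 in MI and 8.28% ± 0.259 in treated rats (SD, n = 4). The Sham shares rest on 18 to 28 reads per rat.

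Cxcl2 made up 14.0% ± 11.1 per length in Sham, 25.0% ± 6.33 in MI and 58.4% ± 1.76 in treated rats (SD, n = 4). Cxcl3 made up 1.79% ± 2.25, 26.5% ± 11.1 and 32.7% ± 1.44 in the same order. The treated rats were nearly alike in makeup although their summed level ran from 3385 to 6400 CPM. MI 5 differed from the other MI rats, with 67.1% Cxcl1 where those held 29.2% to 39.0%.

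The ratio of Cxcl2 to Cxcl1, per length, was 0.672 ± 0.314 in MI and 7.06 ± 0.371 in iCarP+/Light+ rats (SD, n = 4). It ranged from 0.233 to 0.969 in the former and from 6.59 to 7.49 in the latter. The ratio of Cxcl3 to Cxcl2 was 1.02 ± 0.253 in MI and 0.561 ± 0.0416 in iCarP+/Light+ rats (SD, n = 4), again without overlap. Cxcl2 thus stood higher, relative to both of its neighbours, in each treated rat than in any MI rat.

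**Figure D2:**
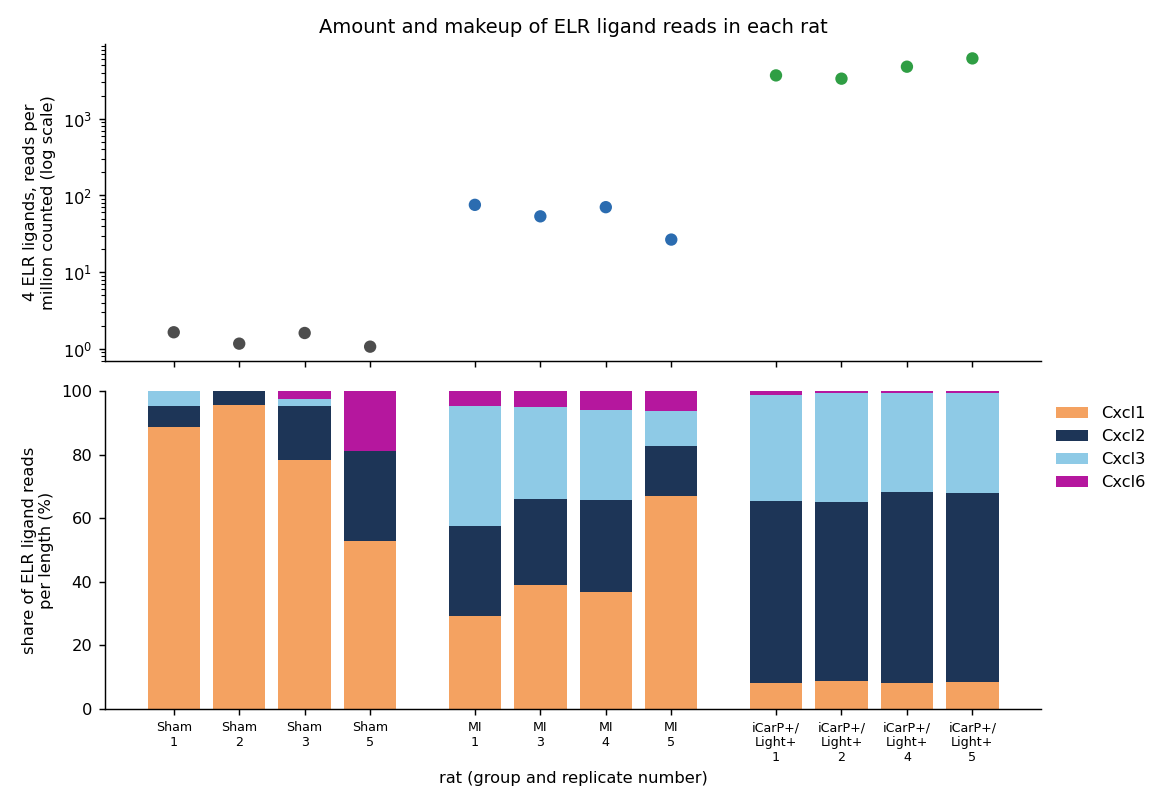
Amount and makeup of the reads of Cxcl1, Cxcl2, Cxcl3 and Cxcl6 in each of the 12 rats. The upper panel gives their summed CPM before TMM scaling on a log axis, 1.07 to 1.64 in Sham and 3339 to 6138 in treated rats. The lower panel gives each ligand's share per length in percent, with Cxcl1 leading in Sham and Cxcl2 in every treated rat.

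Of the ligands without the ELR motif, Pf4 rose after ligation, and its MI and treated rats overlapped. It stood at 28.0, 15.8, 20.2 and 16.8 CPM in Sham and at 139, 66.8, 234 and 70.0 CPM in MI. No MI rat overlapped Sham, and the log2 fold change was 2.66 ± 0.42 (SE, adjusted p = 1.11e-04). The treated rats held 83.3, 120.3, 114 and 223 CPM, all within the range of the MI rats, and the difference was 0.08 ± 0.39 on the log2 scale (SE), or -0.18 with scaling by total counts.

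Cxcl12, the homeostatic ligand of stromal and endothelial cells, fell. Sham rats held 438, 426, 380.2 and 340 CPM, and MI rats 133, 117, 63.2 and 97.6 CPM. The groups lay wide apart, with a log2 fold change of -1.95 ± 0.26 (SE, adjusted p = 2.50e-05). The treated rats, at 186, 161, 112 and 85.0 CPM, overlapped MI and stayed below every Sham rat.

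Cxcl16 was the member whose MI and Sham rats overlapped and that missed the threshold. It stood at 53.0, 47.4, 46.5 and 76.3 CPM in Sham and at 79.5, 96.1, 106 and 46.9 CPM in MI, where MI 5 lay inside the Sham range. The log2 fold change was 0.56 ± 0.24 (SE, adjusted p = 0.0543), and it was called without MI 5 (adjusted p = 0.00459), Sham 5 (0.017) or iCarP+/Light+ 5 (0.0284). DESeq2 called it too (adjusted p = 0.021), as did edgeR with total counts (log2 fold change 1.13, adjusted p = 0.000464). All 4 treated rats, at 132, 142, 101.5 and 152 CPM, lay above the Sham rats, and 1 of them overlapped MI. The Cxcl16 gene shares 119 bases with Zmynd15 on the other strand, which held 6 to 86 counts per rat, and the strand setting of the counting is not given in the sources used here.

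Cxcr2, the receptor of the ELR ligands on neutrophils, rose with them. Sham rats held 1.23, 0.410, 1.44 and 2.58 CPM, and MI rats 33.4, 18.0, 26.3 and 35.7 CPM. The groups lay far apart, with a log2 fold change of 4.33 ± 0.45 (SE, adjusted p = 3.16e-06). The treated rats reached 129, 226, 219.9 and 385 CPM, a log2 difference of 3.08 ± 0.38 (SE) from MI, with the lowest treated rat still above every MI rat.

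Cxcr4, the signalling receptor of Cxcl12, moved little after ligation with TMM scaling. It stood at 55.1, 38.6, 57.9 and 59.3 CPM in Sham and at 53.0, 102, 86.2 and 59.6 CPM in MI, and the groups overlapped. The log2 fold change of 0.51 ± 0.21 (SE, adjusted p = 0.0495) was called, but only 4 of 12 fits that left out 1 rat kept it, with a value of 0.33 to 0.65. It was also lost with limma-voom (adjusted p = 0.0645) and with a replicate block (0.144). The calls ended without MI 3 (adjusted p = 0.173), MI 4 (0.11), iCarP+/Light+ 2 (0.0587) or 4 (0.0562), or any 1 of the Sham rats (0.0539 to 0.139). DESeq2 did call Cxcr4 higher (adjusted p = 0.0175). So did edgeR with total counts (log2 fold change 1.09, adjusted p = 0.00026), where the median of all genes was 0.52. The treated rats, at 108, 147, 157 and 153 CPM, were all above MI, a log2 difference of 0.91 ± 0.21 (SE).

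Ackr3, the receptor that clears Cxcl12, fell after ligation. Sham rats held 181, 105, 179.7 and 163 CPM, and MI rats 25.2, 69.8, 44.7 and 40.6 CPM. No rats overlapped, with a log2 fold change of -1.80 ± 0.26 (SE, adjusted p = 5.11e-05). The treated rats, at 77.6, 91.2, 74.3 and 73.1 CPM, lay between the other groups without overlap with either, 0.81 ± 0.26 (SE) above MI and 0.99 below Sham on the log2 scale.

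Cxcl12 and Ackr3 both fell after ligation, while Cxcr4 did not. Per length, the ratio of Cxcl12 to Ackr3 was 0.954 ± 0.337 in Sham, 0.962 ± 0.634 in MI and 0.610 ± 0.186 in treated rats (SD, n = 4), with all groups overlapping. The ratio of Cxcr4 to Ackr3 was 0.376 ± 0.0347 in Sham, 1.93 ± 0.360 in MI and 1.99 ± 0.403 in treated rats (SD, n = 4). Every infarcted rat lay above every Sham rat, and the infarcted groups overlapped. The ratio of Cxcl12 to Cxcr4 was 2.52 ± 0.754, 0.486 ± 0.247 and 0.330 ± 0.169 in the same order.

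**Figure D3:**
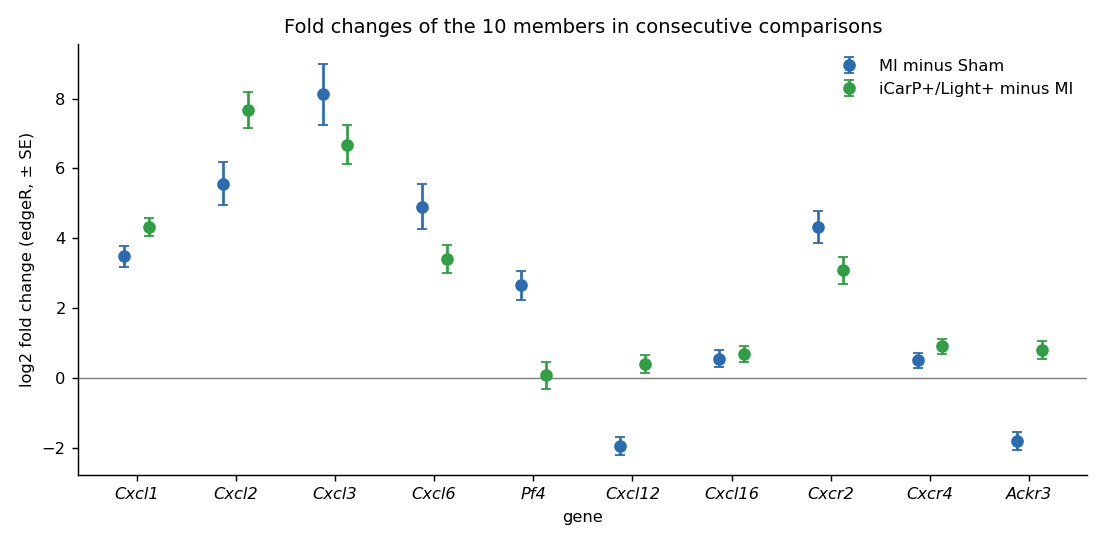
Log2 fold change of each member (edgeR, ± SE) from Sham to MI and from MI to iCarP+/Light+. The ELR ligands and Cxcr2 are above 3 in both comparisons, Pf4 is at 2.66 and 0.08, and Cxcl12 and Ackr3 are negative in the first and slightly positive in the second.

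Per length, the members changed places between groups. In Sham the order was Ackr3 (81.2 CPM per kb), Cxcl12 (73.0) and Pf4 (63.5), whose rats overlapped in sequence, then Cxcl16 and Cxcr4, and far below them Cxcl1 (1.39 CPM per kb) and the rest. In MI Pf4 led at 400.8 ± 246 CPM per kb (SD, n = 4), above every rat of the next gene, and the genes from Cxcl16 to Cxcl2 followed at 48.2 to 10.8 CPM per kb, each overlapping its neighbour. In iCarP+/Light+ rats Cxcl2 at 2201 ± 744 CPM per kb and Cxcl3 at 1215 ± 345 led (SD, n = 4), and these overlapped each other while both exceeded Pf4 at 424.9 ± 191. Cxcl12 stood at 25.1 and Cxcl6 at 22.7 CPM per kb at the bottom of that group.

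Markers of neutrophils rose alongside the ELR ligands. Of 12 neutrophil markers, 8 were tested. By edgeR 7 were called higher from Sham to MI, beside 30.2% of all genes, or 4 of 5 without Fpr1, Clec4e and Camp, which the filter kept for their higher groups alone. From MI to iCarP+/Light+ rats all 8 rose, beside 11.6% of all genes. Their summed level was 19.6 to 30.4 CPM in Sham, 369.8 to 670.4 CPM in MI and 2622 to 7342 CPM in iCarP+/Light+ rats. S100a9, a calcium-binding protein abundant in neutrophils, had means of 3.10, 189.9 and 2186 CPM. The granule gene Mpo was at 0 counts in all Sham and MI rats, and Ltf at 0 in all treated rats. The part of these cells in the result was not tested.

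The ratio of Cxcr2 to that summed marker level was 0.0573 ± 0.0299 in Sham, 0.0598 ± 0.0192 in MI and 0.0455 ± 0.00645 in treated rats (SD, n = 4), with the 3 groups overlapping. For the 4 ELR ligands together the ratio to the neutrophil markers was 0.0729 ± 0.0306 in Sham, 0.0998 ± 0.0449 in MI and 0.916 ± 0.319 in treated rats (SD, n = 4), and the lowest treated rat (0.571) lay above the highest MI rat (0.147). Most of the Sham sum was Lcn2 (16.1 of 19.6 to 30.4 CPM), the tested marker that was not called from Sham to MI. Without Lcn2, an alternative chosen after seeing the data, the Cxcr2 ratio was 0.158 ± 0.0894, 0.0626 ± 0.0197 and 0.0531 ± 0.00811 in Sham, MI and treated rats, and the ELR ratio was 0.199 ± 0.0576, 0.105 ± 0.0473 and 1.08 ± 0.399 (SD, n = 4). The direction of the ELR ratio from Sham to MI thus turned, and its rise from MI to treated rats remained. These ratios share the treated rats' values with the choice of the members.

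The cells that could carry Pf4 were followed by the platelet and macrophage lists. Of 8 platelet and megakaryocyte markers 5 were tested, and edgeR called 0 from Sham to MI, as did DESeq2 and limma-voom, with 0 at an unadjusted p below 0.05 and 2 higher with scaling by total counts. Their summed level was 8.46 to 11.0 CPM in Sham, 7.66 to 14.7 CPM in MI and 12.2 to 18.2 CPM in treated rats, and Gp1bb was at 0 counts in all Sham and MI rats. Gp6 and Tubb1 passed the filter only through the treated group. Of the other 3, edgeR called 0 from MI to treated rats and 1 higher (Itga2b) from Sham to treated rats, and over all 5, 4 were higher from MI to treated rats at an unadjusted p below 0.05, 1 by DESeq2 and 2 by limma-voom. Macrophage markers, a type that can also express Pf4, summed to 406 to 629 CPM in Sham, 834 to 1521 CPM in MI and 578 to 804 CPM in treated rats. From Sham to MI 4 of 8 were called higher (Cd68, Csf1r, Mrc1 and Cd163), beside 30.2% of all genes. Adgre1 was not called, nor were C1qa, C1qb and C1qc, whose MI means lay below their Sham means. From MI to treated rats 1 rose (Adgre1) and 4 fell (Mrc1, C1qa, C1qb and C1qc), beside 11.6% and 2.01% of all genes. The ratio of Pf4 to the platelet sum was 2.07 ± 0.426 in Sham, 14.9 ± 11.4 in MI and 8.37 ± 3.33 in treated rats (SD, n = 4). The MI rats ran from 4.54 to 30.5 and overlapped the treated rats. The ratio of Pf4 to the macrophage sum was 0.0439 ± 0.0155 in Sham, 0.113 ± 0.0658 in MI and 0.186 ± 0.0723 in treated rats (SD, n = 4).

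For Cxcl12 and Ackr3 the stromal lists fell alongside. Endothelial markers fell in 7 of 7 tested and fibroblast and mural markers in 5 of 8 from Sham to MI, beside 33.6% of all genes, to summed levels of 713 to 1137 and 1228 to 1595 CPM. With scaling by total counts 3 of 7 endothelial markers fell, and 5 of 8 fibroblast and mural markers fell while 1 rose, beside 18.4% of all genes lower and 51.0% higher. The ratio of Cxcl12 to the fibroblast and mural sum was 0.0946 ± 0.0117 in Sham, 0.0735 ± 0.0227 in MI and 0.105 ± 0.0365 in treated rats (SD, n = 4), overlapping in all 3 groups. The ratio of Ackr3 to the endothelial sum was 0.0882 ± 0.0215, 0.0497 ± 0.0223 and 0.0771 ± 0.00653 in the same order. Lymphocyte markers summed to 47.4 to 70.8 CPM in Sham, 112 to 243 CPM in MI and 43.6 to 84.7 CPM in treated rats, and red blood cell markers to 7865 to 10570, 2504 to 6931 and 6184 to 17470 CPM. Their part in the members' changes was not tested.

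**Figure D4:**
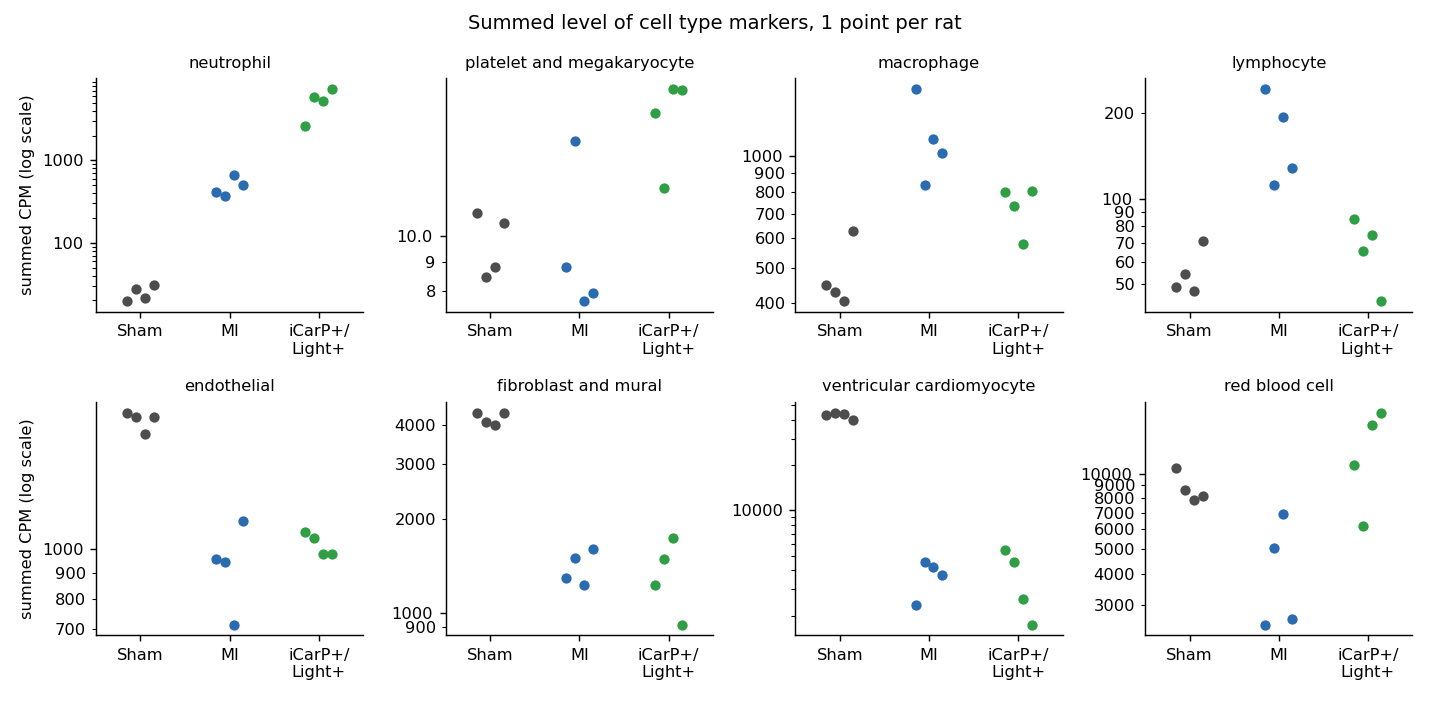
Summed CPM of each list of cell type markers in each rat, by group, on log axes. The neutrophil sum steps up without overlap from 19.6 to 30.4 CPM in Sham to 2622 to 7342 CPM in iCarP+/Light+ rats, while the macrophage and lymphocyte sums are highest in MI and the cardiomyocyte sum is highest in Sham.

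Other genes of the CXC system came from 5 lists of 59 symbols, of which 52 were tested. By edgeR 38 rose and 5 fell from Sham to MI, where 30.2% of all genes rose and 33.6% fell, and from MI to iCarP+/Light+ rats 26 rose and 0 fell. The latter split was 20 against 3 with scaling by total counts, which moved the share of all genes called from 11.6% higher and 2.01% lower to 7.97% and 18.0%. At an unadjusted p below 0.05, 2 of the 52 were lower in treated rats than in MI, and DESeq2 called 1 (Pik3cg) and limma-voom 0. Some genes passed the filter only through their higher group, from Sham to MI Cxcl14, Cxcr5, Mmp9, Elane, Il1a and Tnf, and from MI to treated rats Cxcl17, Il1a and Tnf. Leaving these out, 34 of 46 rose and 5 fell from Sham to MI, and 24 of 49 rose from MI to treated rats. Against Sham, where 33.5% of all genes rose and 33.0% fell (44.1% and 24.1% with total counts), 42 rose and 6 fell in the treated rats, or 36 and 5 of the 45 that did not pass the filter through their higher group alone. The lists were drawn up with earlier results of these data known, so they are not independent evidence of a direction.

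Of the other CXC ligands 2 of 6 tested were called higher and 2 lower from Sham to MI, shares near those of all genes (30.2% and 33.6%). Cxcl14, a chemokine of epithelial and stromal cells, stood at 0.559 CPM in Sham and 7.17 CPM in MI, and Cxcl13, which attracts B cells, rose from 2.69 to 10.8 CPM (log2 fold change 2.00, adjusted p = 0.00825). Cxcl9, an interferon-induced ligand of Cxcr3, fell from 77.3 to 11.5 CPM (log2 fold change -2.75, adjusted p = 2.38e-04). Cxcl17 was called lower (1.75 ± 2.13 against 0.431 ± 0.282 CPM, SD, n = 4, adjusted p = 0.0394 by edgeR), but its groups overlapped. That call was lost with limma-voom, total counts, the replicate block, only the compared rats, the stricter filter and without mitochondrial genes. From MI to treated rats 0 of the 6 tested passed edgeR's test, with log2 differences of -0.52 to 1.35. At an unadjusted p below 0.05, 1 was higher, which limma-voom also called (Cxcl13, 10.8 to 27.6 CPM), and DESeq2 called 0. Ppbp, which lies between Pf4 and Cxcl6 in the cluster, had too few counts to test, with means of 0.144 CPM in Sham, 0.136 CPM in MI and 0.900 CPM in treated rats.

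Among the other receptors, Cxcr3, found on activated T cells, rose from 2.11 to 4.75 CPM after ligation (log2 fold change 1.17, adjusted p = 0.0145), a call lost with a replicate block, and Cxcr5, a receptor of B cells, stood at 0.610 and 1.47 CPM. Cxcr6, the receptor of Cxcl16, stood at 1.07 and 1.89 CPM (log2 difference 0.81, adjusted p = 0.0975). From MI to treated rats edgeR called 0 of 3, as did DESeq2 and limma-voom, while scaling by total counts gave 1 lower (Cxcr3), with 1 higher and 1 lower at an unadjusted p below 0.05. Cxcr1, the other receptor of some ELR ligands, was at 0 counts in all Sham and MI rats and at a mean of 0.146 CPM in treated rats. Of Cxcr1 and Cxcr2, Cxcr2 thus held nearly all counts.

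Of 11 proteins tested that cut, shed or hold CXC ligands, 8 rose and 3 fell after ligation, beside 30.2% and 33.6% of all genes. With scaling by total counts 8 rose and 2 fell, beside 51.0% and 18.4%. Without Mmp9 and Elane, which the filter kept for their higher groups alone, 6 of 9 rose. The gelatinase Mmp9 stood at 0.490 CPM in Sham and 27.4 CPM in MI. The heparan sulphate carrier Sdc1 rose from 8.19 to 286 CPM (5.12, adjusted p = 3.96e-08). Elane, the neutrophil elastase, held 2 counts over all Sham rats and 102 over the MI rats, a ratio of 37.0 with a 95% counting interval of 9.99 to 310. The peptidase Dpp4, which trims Cxcl12, fell from 60.5 to 8.92 CPM (-2.76, adjusted p = 2.99e-07), and Mmp2 and Adam10 fell as well, with log2 fold changes of -1.95 and -0.38. The Adam10 call was lost with total counts and with only the compared rats.

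From MI to treated rats 7 of these 11 rose, beside 11.6% of all genes, or 5 with scaling by total counts, beside 7.97%. Mmp9 reached 833.8 ± 350 CPM (SD, n = 4; log2 fold change 4.93, adjusted p = 3.13e-06), Elane 21.5 ± 9.58 CPM (3.99) and Mmp8, the neutrophil collagenase, 447 ± 177 CPM (3.91). Adam17, a protease that sheds membrane proteins, rose by 0.77 and Mmp2 by 0.89. Sdc1 and Tnfaip6 stood at log2 differences of 0.30 and 0.84 and did not pass (adjusted p = 0.442 and 0.290), and Dpp4 at -0.24 (adjusted p = 0.528).

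Receptor signalling genes of leukocytes rose in 18 of 18 tested from Sham to MI, beside 30.2% of all genes, with log2 fold changes of 0.51 to 3.72. Among them were the Src-family kinase Fgr (3.72) and the exchange factor Vav1 (3.39). From MI to treated rats 7 of 18 rose, beside 11.6% of all genes. They were led by the small GTPase Rac2 (131.6 to 596 CPM, log2 fold change 2.18, adjusted p = 1.06e-04) and Fgr (1.79). The other 11 did not pass, with Pik3cg at -0.47 as the lowest. With scaling by total counts 5 rose and 2 fell (Pik3cg and Gng2), beside 7.97% and 18.0% of all genes, and DESeq2 called 1 lower (Pik3cg).

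Of the inducers and mRNA regulators of the ELR ligands, 8 of 14 tested rose after ligation, beside 30.2% of all genes. From MI to treated rats 12 of 14 rose, beside 11.6% of all genes. These counts were 11 and 10 with scaling by total counts, beside 51.0% and 7.97% of all genes. They were 8 of 12 and 10 of 12 without Il1a and Tnf, which the filter kept for the treated group alone. The first step was led by Il1b (2.61 to 42.9 CPM, log2 fold change 4.04, adjusted p = 5.92e-07), the IL-17 receptor Il17ra (24.2 to 194 CPM, adjusted p = 3.67e-08) and the NF-kappaB cofactor Nfkbiz (2.16). Il1a, a cytokine released by damaged and activated cells, stood at 0.146 ± 0.180 CPM in Sham, 0.296 ± 0.307 CPM in MI and 263 ± 79.4 CPM in iCarP+/Light+ rats (SD, n = 4). With 22 counts over the MI rats, 13 of them in 1 rat, and 15957 over the treated rats, the ratio was 897. Its 95% counting interval was 592 to 1432, and no p is given for this gene. Il1b reached 1691 ± 571 CPM (SD, n = 4; log2 fold change 5.30) and Nfkbiz 429.8 ± 133 CPM (3.53). Genes whose products destroy ELR ligand mRNA rose at the same time, Zc3h12a by 3.04 and Zfp36 by 2.10 on the log2 scale, while Elavl1, which stabilises such mRNA, stood at 0.02 (adjusted p = 0.942). Il17a was at 0 counts in all Sham and treated rats.

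**Figure D5:**
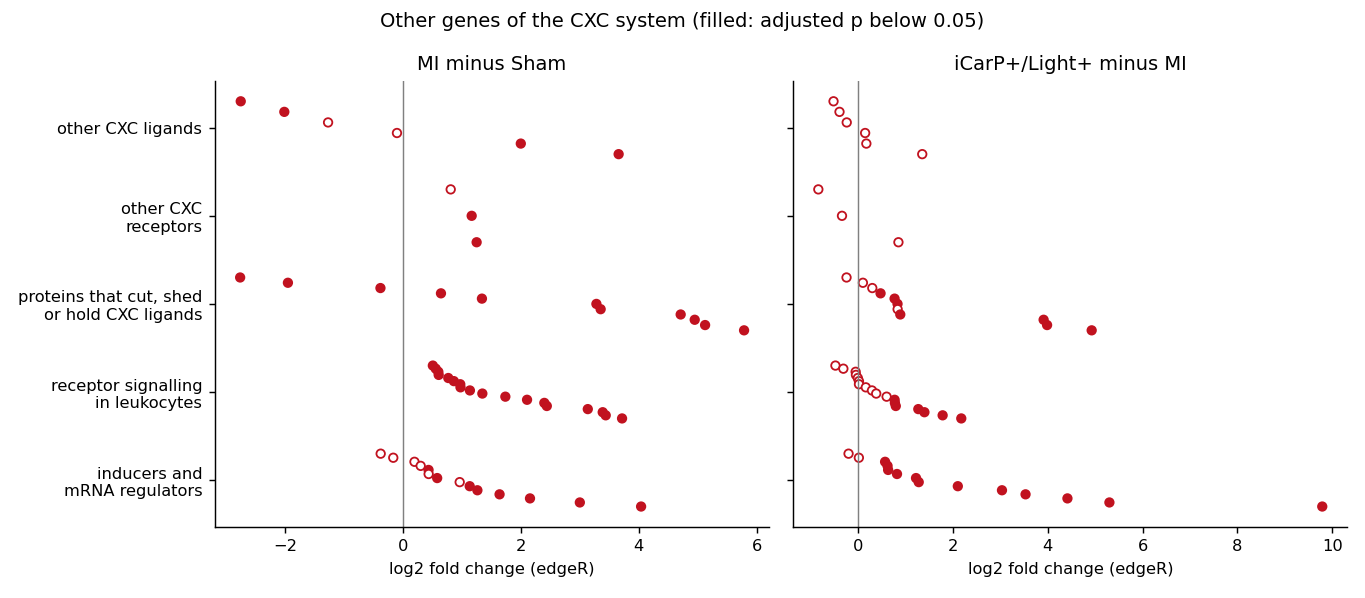
Log2 fold changes (edgeR) of the tested genes of 5 lists of the CXC system, from Sham to MI on the left and from MI to iCarP+/Light+ on the right. Each point is a gene, filled where the adjusted p was below 0.05. All 18 signalling genes are raised on the left, and 12 of 14 inducers and regulators on the right, where the other CXC ligands and receptors have no filled point. Of all genes tested, 30.2% rose on the left and 11.6% on the right.

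The genes whose profile over the 12 rats was nearest to that of a member were found by the root mean square difference of log2 CPM after subtracting each gene's Sham mean, among genes outside the 10 members with a mean of at least 1 CPM. Nearest to Cxcr2 were Trem1 (0.56) and Rab44 (0.56), and nearest to Cxcl6 were Rab44 (0.54), Trem3 (0.67) and Trem1 (0.79). Nearest to Cxcl1 were Pglyrp1 (0.61), Elane (0.66) and Ptgs2 (0.72). Ptgs2, the inducible cyclooxygenase, had means of 1.38 CPM in Sham, 13.1 CPM in MI and 505.5 CPM in treated rats.

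Cxcl2 and Cxcl3 were nearer to each other (1.01) than to any gene outside the members. The nearest outside genes to Cxcl2 were Mmp9 (1.56), Hcar2 (1.62) and Clec4e (1.69), and the nearest to Cxcl3 were Il1r2 (1.62), Mmp9 (1.92) and Clec4e (1.96). Il1r2, the decoy receptor of interleukin-1, had means of 0.356, 53.9 and 845.7 CPM in Sham, MI and treated rats. Several of these genes are also on the neutrophil or ligand-cutting lists, and the points share libraries and depth.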

How the data were processed

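Total RNA of LV from 12 rats was sequenced with a NEBNext Ultra library kit. The authors deposited raw read counts per gene, with gene positions and lengths, and the submitters' processing notes name HISAT2, featureCounts and rn6. Versions, strand setting, annotation release and the treatment of multi-mapping reads are not given in the sources used here. In R 4.3.3, edgeR 4.0.16 (filterByExpr, minimum count 10; TMM; quasi-likelihood, 1 mean per group over all 12 rats) gave fold changes and adjusted p-values with a threshold of 0.05. DESeq2 1.42.0 and limma 3.58.1 (voom) were alternatives, as were other scalings, filters, a replicate block and leaving out each rat. The script was tested on simulated data. The members and lists were chosen with earlier results of these data known. From each list, up to 3 highest and 3 lowest called genes with a mean of at least 1 CPM could be named, and for the 4 ELR ligands and Cxcr2 the 3 nearest profiles. Genes named in the text outside this rule were chosen after their values were seen, and some genes the rule would name are not reported here. Cxcl5, Ackr1, Dock2, Cd79a and Pecam1 had no row under that symbol. Promoters came from RefSeq (GRCr8), whose coordinates were not mixed with rn6. Within groups, pairs of rats differed by a chi-square per gene of 14.8 to 119, so no library was a copy of another.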

Additional observations from a re-analysis of the deposited data

Results flagged for a closer look

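Cxcr4 in Sham 2 stood apart from the other Sham rats, at 38.6 CPM against 55.1 to 59.3 CPM. Its gap to the nearest rat was 0.83 of the group's range in log2 CPM, just past Dixon's critical value for 4 samples. It was the only one of 54 groups of 4 rats looked at, and 2.7 would pass by chance at 1 in 20.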

How the results depend on the processing

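Under a filter of at least 10 counts in each rat, 3 of the 10 members were called higher in MI than in Sham in place of 7, since Cxcl1, Cxcl2, Cxcl3, Cxcl6 and Cxcr2 are not tested under that filter. Under the other alternatives 6 to 8 were called higher and 2 lower. The pathway genes called lower in MI numbered 5, but 3 with scaling by total counts and 3 with only the rats of the compared groups, and 3 to 7 when a rat was left out. Those called lower from MI to iCarP+/Light+ numbered 0, but 3 with scaling by total counts and 1 with DESeq2, and 0 to 1 when a rat was left out. Cxcl16 changed sides with the scaling, filter and rats used, and Cxcr4 with limma-voom, the block and the rats used. Same-numbered rats are different animals, and their deviations from the group means did not go together (r of -0.15 to 0.0654 in 9 pairs, with the same number as best match in 1), so the numbers do not pair them. With a replicate block 6 members were called higher and 2 lower, and Cxcr4 was lost (log2 fold change 0.37, adjusted p = 0.144). Scaling by total counts moved the all-gene median log2 fold change to 0.52 from Sham to MI and to -0.25 from MI to iCarP+/Light+. The median log2 difference of the ELR ligands from MI to iCarP+/Light+ was 5.50 and stayed between 5.20 and 5.72 under the alternatives that kept all 4. At this depth, ELR ligands at 0 to 5 counts in a Sham rat are at the detection limit.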
